A study of Mus musculus with 10 samples.

Results

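The integrin and laminin genes described here are 34 protein-coding genes among the 25700 genes counted in regenerating tibialis anterior (TA) muscle of the mouse. Their symbols name integrin α chains (Itga), integrin β chains (Itgb with 1 digit) or laminin α, β and γ chains (Lama, Lamb or Lamc with 1 digit), and each had at least 10 reads in at least 5 of the 10 mice. The choice used no comparison between genotypes. Of 37 genes with such a symbol, *Itgad* (1 to 15 reads per mouse), *Lama1* (0 to 10 reads) and *Lamc3* (4 to 19 reads) had too few reads. The 34 members had at least 10 reads in all 10 mice, and each of them passed the filter on low counts.

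RNA was taken from whole TA muscle of 5 Pax7Cre and 5 miR-501ΔMP mice, all male, 12 weeks old and of strain C57BL/6, 6 days after intramuscular injection of cardiotoxin (CTX), a snake venom toxin that destroys muscle fibers and starts their regeneration. Sample titles read Pax7Cre or miR-501KO, the genotype field reads wild type for the first group and miR-501 -/- for the second, and the design text describes the second as Pax7CremiR-501fl/Y. Both groups therefore carry Cre, and only the second also carries the floxed miR-501 on its X chromosome. Cre is expressed from the Pax7 promoter and is not inducible, so the deletion is set in the myogenic lineage, while the reads come from every cell type of the muscle. *Mir501* is not among the genes counted, so these counts hold no check of the deletion. The comparison addresses whether loss of the miRNA from myogenic progenitors goes with a different level of matrix and adhesion transcripts in the regenerating muscle.

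Integrins are cell surface receptors made of 1 α and 1 β chain, and they tie the extracellular matrix, or the surface of another cell, to the cytoskeleton. Laminins are trimers of 1 α, 1 β and 1 γ chain and form the sheet of the basement membrane. In muscle, the laminin with the α2 chain surrounds each fiber and is held by integrin α7β1 and by the dystroglycan complex. Leukocytes use their own integrins, built mostly on the β2 and β7 chains, to leave vessels and to enter damaged tissue, and vessels have laminins with the α4 and α5 chains under their endothelium. Accordingly the members were read in 5 classes, with 3 muscle, 7 leukocyte, 6 vascular, 5 epithelial and 13 widely expressed chains, a division from textbook knowledge of where each chain is best known.

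Between 18609222 and 24753258 reads were counted per mouse, with a biological coefficient of variation of 0.149 within a genotype. All 12 mature fiber markers (such as *Ckm* and *Casq1*) and all 9 markers of regenerating fibers and progenitors (such as *Myh3* and *Pax7*) had reads in every mouse, so both states of the labelled tissue were seen. Pax7Cre mouse 2 stood apart, with a score of 44.9 on the first principal component (32.2% of the variance), and Pax7Cre mouse 4 lay at the other end with −27.8. The mature fiber markers summed to 40900 CPM (reads scaled to the TMM-normalised size of each library) in Pax7Cre mouse 2 and to 15600 CPM in Pax7Cre mouse 4, the highest and the lowest of the 10 mice, and to between 23100 and 30800 CPM in miR-501ΔMP mice. Neither the labels nor the study's methods name a sequencing batch.

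The deleted miRNA is shown here because bases 2 to 8 of a miRNA, its seed, pair with complementary letters in the 3′ untranslated region (UTR) of its targets. Mature miR-501-3p lies at chrX:7241270-7241291 on the minus strand of GRCm38.p6 (RefSeq), is 22 bases long, and shares its seed, printed in capitals, with miR-500-3p.
miR-501-3p: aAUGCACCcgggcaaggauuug
A match to the seed reads GGTGCAT in the coding strand of DNA. It stood in an annotated 3′UTR of 4 of the 34 members (11.8%), against 1360 of 20951 protein-coding genes with a 3′UTR (6.49%). The longest annotated 3′UTR had a median of 1113 bases over the members and 961 bases over all these genes. The windows of the 4 matches, read from the GENCODE M21 transcripts of GRCm38 with the match in capitals, were as follows.
Itga2b 3′UTR, chr11:102453333-102453362, minus strand: ccagcagaccgGGTGCATcccttttcctaa
Itga3 3′UTR, chr11:95045017-95045046, minus strand: tgggctttatgGGTGCATctctaaaatcgt
Itga4 3′UTR, chr2:79332718-79332747, plus strand: ctcacaagtgtGGTGCATaaatcacacata
Itgb3 3′UTR, chr11:104669687-104669716, plus strand: ttttgttagtgGGTGCATctgatgtagcac
A match of letters is a description only, and its use by the miRNA was not tested. The log2 fold changes of these 4 genes, miR-501ΔMP over Pax7Cre, were −0.04 for *Itga2b*, 0.01 for *Itga3*, 0.10 for *Itga4* and 0.11 for *Itgb3*, each with a 95% interval that held 0.

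The members that stood out by level were the widely used chains. Levels of different genes were compared per length, as CPM per kilobase of merged exons (mean ± SD over all 10 mice). *Itgb1*, the β chain shared by most matrix-binding integrins, had 171 ± 10.1, the highest of the 34. The laminin γ1 chain *Lamc1*, part of most laminin trimers, followed with 44.2 ± 5.66, and the β1 chain *Lamb1* had 28.3 ± 3.28. Between them lay the leukocyte β chain *Itgb2* (36.1 ± 4.55) and *Itgb5* (34.8 ± 3.46), a partner of αv in vitronectin binding. *Itgb2* and *Itgb5* differed by less than their spread over mice. Per kilobase of the longest transcript *Lamb1* (48.6 ± 5.63) and *Lamc1* (47.9 ± 6.14) stood level, both above *Itgb5* (37.7 ± 3.74) and *Itgb2* (37.1 ± 4.67).

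Among α chains, the fibronectin receptor *Itga5* (26.7 ± 4.75) and the muscle laminin receptor *Itga7* (23.0 ± 2.37) were the highest, and their ranges over the mice overlapped. Per kilobase of the longest transcript their order turned, with 29.9 ± 5.31 for *Itga5* and 46.2 ± 4.78 for *Itga7*. *Itgam* (15.5 ± 3.31) and *Itgax* (15.3 ± 1.73), the α chains of the macrophage integrins CD11b and CD11c, came next and differed by less than their spread, while per longest transcript the laminin receptor chain *Itga6* (20.6 ± 1.36) stood above *Itgax* (18.2 ± 2.05) and *Itgam* (16.7 ± 3.55). *Itgam* shares most of its exons with another listed gene, so its level and rank depend on how shared reads were counted. Of the laminin α chains, *Lama4* had 13.0 ± 1.51, *Lama2* 7.51 ± 0.850 and *Lama5* 6.10 ± 0.790, so the vascular α4 chain was above the muscle α2 chain on this scale, as it was per longest transcript (26.0 ± 3.02 against 12.8 ± 1.44). The epithelial laminin chains *Lama3* (0.549 ± 0.0779) and *Lamb3* (0.526 ± 0.0898) were far below these, and *Itgb8* (0.274 ± 0.0407) was the lowest member. With the other length, 8 of the 10 highest members were shared.

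**Figure D1:**
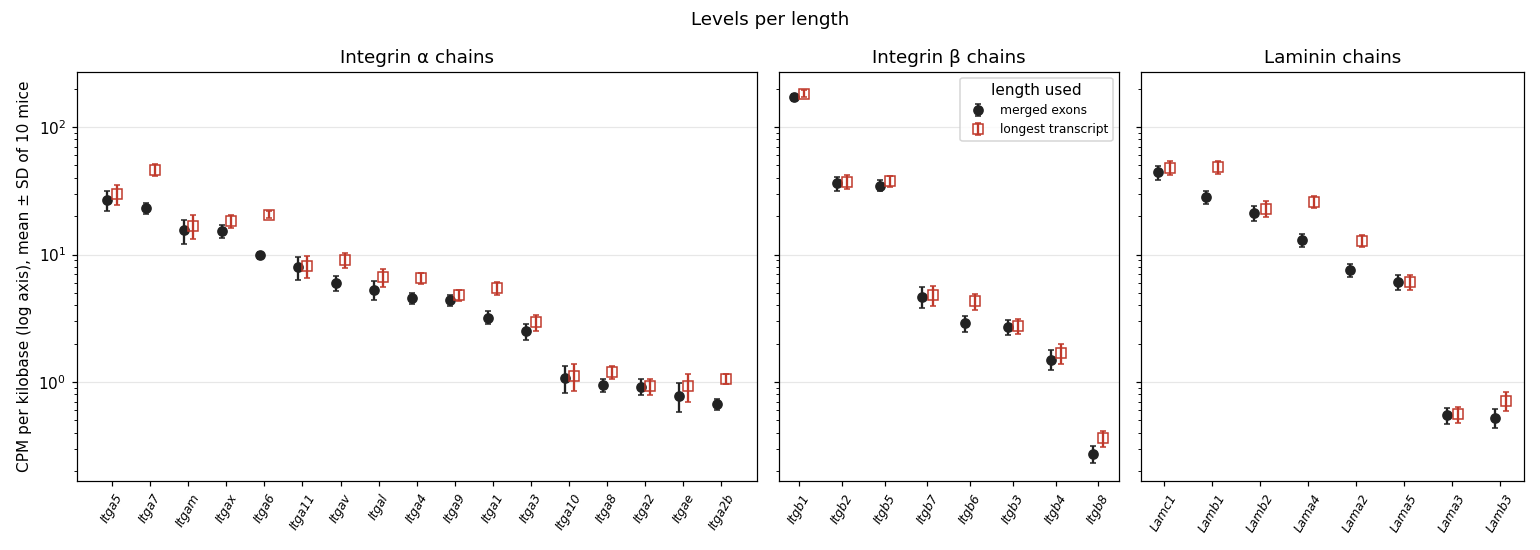
Mean level of the members over the 10 mice in CPM per kilobase (log axis), with SD as error bars, for integrin α chains, integrin β chains and laminin chains, with the length taken from merged exons (filled circles) or from the longest transcript (open squares). *Itgb1* stands highest at 171, and the order of *Itga5* and *Itga7* turns with the length used.

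Between the genotypes no member passed the test. In edgeR's quasi-likelihood test, 0 of the 34 members and 0 of all 14410 genes (0.0%) had a Benjamini-Hochberg adjusted p under 0.05, and the smallest adjusted p of a member was 1.00. At an unadjusted p under 0.05, 0 members were higher and 0 were lower in miR-501ΔMP mice, against 55 higher genes (0.382%) and 96 lower genes (0.666%), or 151 in either direction (1.05%), among all genes tested. In DESeq2's Wald test 1 member, *Itga10*, was higher at an unadjusted p under 0.05, where 52 of 14408 genes (0.361%) were. At that threshold 0 members were lower, where 98 genes (0.68%) were, and 0 members had an adjusted p under 0.05. The exact permutation test gave 0 members with p under 0.05, a count with no share of all genes beside it. Groups overlapped in each of the 34 members, where 20 of all genes (0.139%) had groups that did not overlap.

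The sizes of the differences were small. Of the members, 23 had a log2 fold change above 0 and 11 below, with a median of 0.0382, against 47.9% above 0 and a median of −0.00421 over all genes. This balance rested on single mice. It was 18 of 34 without miR-501ΔMP mouse 3 (median 0.0113), 19 without Pax7Cre mouse 1 (0.0123) or 2 (0.00491), and 27 without miR-501ΔMP mouse 2 (0.0725). The 95% interval of the log2 fold change lay within −0.5 and 0.5 for 31 of the 34 members. *Itga10* (upper bound 0.78), *Itgae* (0.51) and *Itgb4* (0.51) reached beyond it. Single mice moved the count of members at an unadjusted p under 0.05. Without Pax7Cre mouse 4, 3 members were higher, *Itga7*, *Itgam* and *Itgb3*, where 228 of 14487 genes (1.57%) were higher. Leaving out Pax7Cre mouse 2 gave 1, *Itgb4*, where 1.84% of all genes were higher, and leaving out Pax7Cre mouse 3, Pax7Cre mouse 5 or miR-501ΔMP mouse 4 gave 1 each, *Itga10* (0.469%, 0.455% and 0.448% of all genes). With Pax7Cre mice 2 and 4 both left out, an alternative added after seeing the data, 4 members were higher, *Itga7*, *Itgb4*, *Itgb7* and *Lamb3*, and 0 were lower, where 279 of 14580 genes (1.91%) were higher and 1.73% lower.

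**Figure D2:**
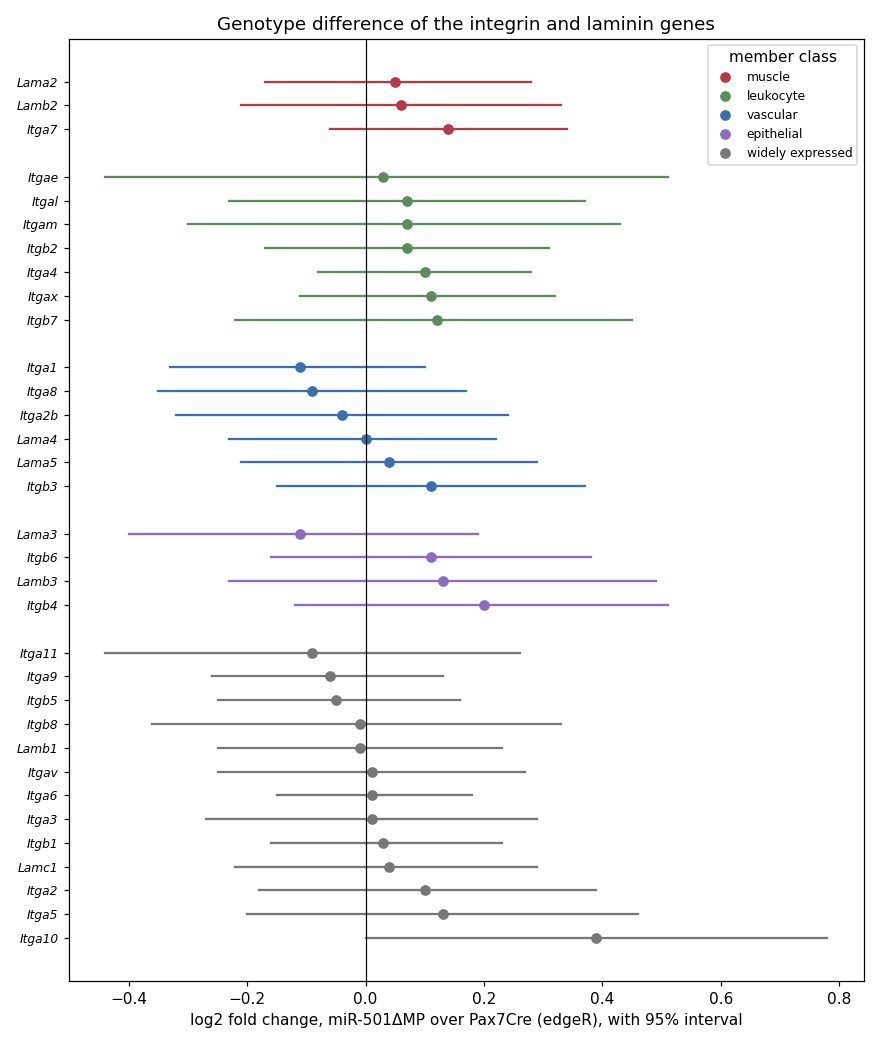
Log2 fold change of the members, miR-501ΔMP over Pax7Cre, from edgeR (points) with its 95% interval (lines), arranged and coloured by class. The 7 leukocyte points and the 3 muscle points lie above 0, while intervals cross or touch 0 in every class, with *Itga10* at 0.39 farthest from it.

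The muscle chains had slightly higher means in miR-501ΔMP mice, by less than the spread between mice. All 3 had log2 fold changes above 0, with a median of 0.0597, but single mice turned this. Without Pax7Cre mouse 1, 1 of the 3 was above 0 with a median of −0.00235, without Pax7Cre mouse 3 or miR-501ΔMP mouse 3 it was 2 of the 3 (medians 0.0573 and 0.0186), and without Pax7Cre mouse 5 the median was 0.132. *Itga7*, the α chain of the fiber's laminin receptor, which myogenic progenitors carry too (chr10:128933818-128958282, plus strand, GRCm38), had 159, 158, 164, 215 and 188 CPM in Pax7Cre mice 1 to 5 and 190, 194, 197, 194 and 201 CPM in miR-501ΔMP mice 1 to 5. Pax7Cre mice 1, 2, 3 and 5 lay below every miR-501ΔMP mouse, and Pax7Cre mouse 4 lay above them. The means were 177 ± 24.6 and 195 ± 4.08 CPM (SD, n = 5 each; exact two-sided permutation p = 0.127). The log2 fold change was 0.14 (standard error 0.0934, 95% interval −0.06 to 0.34, edgeR's unadjusted p 0.152 and adjusted p 1.00). Without Pax7Cre mouse 4, the mouse with the least mature fiber RNA, it was 0.22 (edgeR's unadjusted p 0.0127), and without both Pax7Cre mice 2 and 4 it was 0.20 (edgeR's unadjusted p 0.0259). It was 0.10 (edgeR's unadjusted p 0.280) without Pax7Cre mouse 2 and 0.11 without Pax7Cre mouse 1.

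*Lama2* encodes the laminin α2 chain of the fiber's basement membrane, which is also made by fibroblastic cells of the muscle (chr10:26980036-27619758, minus strand). It had 102, 131, 122, 107 and 140 CPM in Pax7Cre mice and 114, 113, 143, 123 and 131 CPM in miR-501ΔMP mice. The genotypes overlapped over most of the range, and the log2 fold change was 0.05 (standard error 0.103, 95% interval −0.17 to 0.28). *Lamb2*, the β2 chain found at the neuromuscular junction and around fibers (chr9:108479736-108490530, plus strand), had 100, 142, 104, 134 and 151 CPM in Pax7Cre mice and 110, 124, 146, 134 and 143 CPM in miR-501ΔMP mice. Both genotypes spanned much the same levels, with a log2 fold change of 0.06 (standard error 0.126, 95% interval −0.21 to 0.33). The summed CPM of the 3 muscle chains was between 360 and 479 in Pax7Cre mice and between 413 and 486 in miR-501ΔMP mice. Of the 12 mature fiber markers, 11 had log2 fold changes above 0 (median 0.0436). Of the 9 markers of regenerating fibers and progenitors, 7 had (median 0.0276), with 0 of either list at an unadjusted edgeR p under 0.05. In bulk tissue, fewer cells of a type and less RNA per cell cannot be told apart, here and for every class below.

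**Figure D3:**
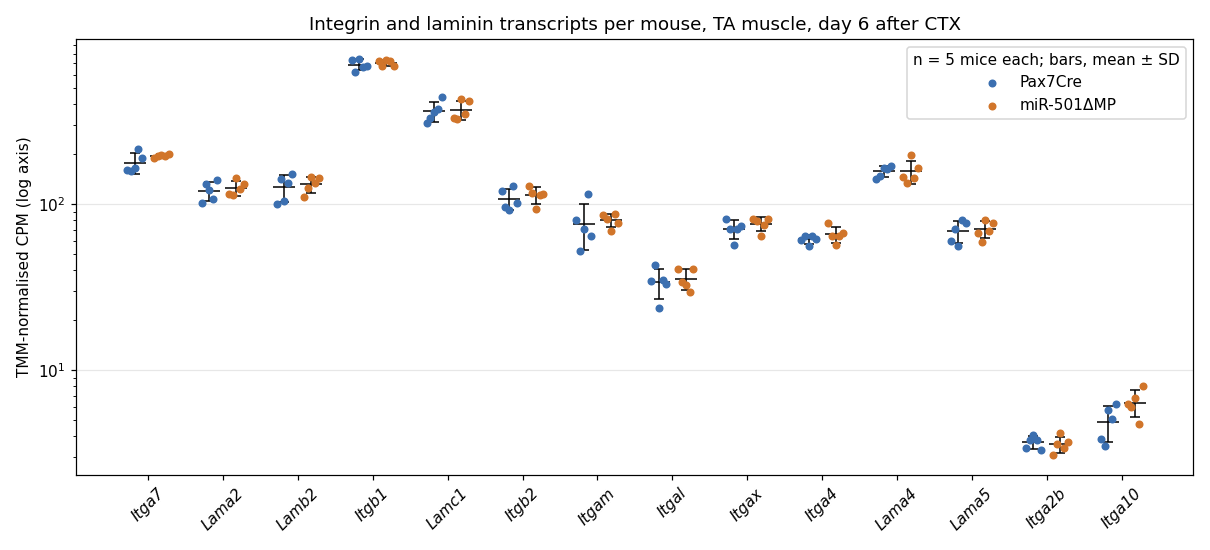
TMM-normalised CPM (log axis) of 14 members in each of 5 Pax7Cre (blue) and 5 miR-501ΔMP (orange) mice, with mean and SD as bars. The orange points of *Itga7* sit between 190 and 201 while the blue ones spread from 158 to 215, and the groups overlap for each gene shown.

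The leukocyte integrins had log2 fold changes between 0.03 and 0.12, above 0 for all 7, with a median of 0.0723. None of them passed the test. With the mature fiber score in the fit 6 of the 7 were above 0, as they were without Pax7Cre mouse 2, 3 or 5 or miR-501ΔMP mouse 4 or 5, and the median ran from 0.036 without Pax7Cre mouse 3 to 0.136 without miR-501ΔMP mouse 3. *Itgb2*, the β chain of CD11a, CD11b and CD11c integrins, had 119, 96.2, 92.2, 129 and 101 CPM in Pax7Cre mice and 129, 116, 92.8, 113 and 115 CPM in miR-501ΔMP mice. Both groups ran from about the same lowest to the same highest level. The means were 107 ± 15.8 and 113 ± 12.9 CPM (SD, n = 5 each; exact two-sided permutation p = 0.563). Its log2 fold change was 0.07 (95% interval −0.17 to 0.31).

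*Itgam*, the CD11b chain of macrophages and neutrophils, spread most between mice among the leukocyte chains, with the highest mouse 2.20 times the lowest. It had 80.4, 51.9, 70.3, 114 and 64.3 CPM in Pax7Cre mice and 85.5, 81.3, 68.9, 87.0 and 77.0 CPM in miR-501ΔMP mice. Its lowest and highest mice were Pax7Cre mice 2 and 4, and the miR-501ΔMP mice lay between them. The log2 fold change was 0.07 (95% interval −0.30 to 0.43), 0.26 (edgeR's unadjusted p 0.0463) without Pax7Cre mouse 4 and −0.05 without Pax7Cre mouse 2. *Itgam* (chr7:128062640-128118491, plus strand) shares 3450 bases, 68.7% of its exons, with *Gm49368* on the same strand. Shared reads could have been split between them, counted in both or left out, which is not known. The sum of both genes was 134 ± 43.4 CPM in Pax7Cre and 139 ± 12.3 CPM in miR-501ΔMP mice (SD, n = 5 each; exact two-sided permutation p = 0.833). It would be too high if shared reads were counted in both. *Itgax* (chr7:128129547-128150657, plus strand), a neighbour of *Itgam* known from dendritic cells and some macrophages, had 81.7, 70.9, 56.6, 70.8 and 73.7 CPM in Pax7Cre mice and 81.7, 78.8, 63.9, 74.8 and 81.6 CPM in miR-501ΔMP mice. Its highest Pax7Cre mouse equalled the highest miR-501ΔMP mouse, and the log2 fold change was 0.11 (95% interval −0.11 to 0.32).

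*Itgal*, the CD11a chain of lymphocytes, had 34.2, 43.0, 23.7, 34.9 and 33.2 CPM in Pax7Cre mice and 40.7, 34.0, 32.5, 29.6 and 40.7 CPM in miR-501ΔMP mice. Both the lowest and the highest value came from Pax7Cre mice (log2 fold change 0.07, 95% interval −0.23 to 0.37). *Itga4*, which binds VCAM-1 on endothelium and is 1 of the 4 members with a seed match, had 60.8, 64.4, 55.5, 64.1 and 61.2 CPM in Pax7Cre mice and 76.9, 63.9, 56.8, 64.3 and 66.7 CPM in miR-501ΔMP mice. miR-501ΔMP mice 1 and 5 lay above every Pax7Cre mouse, and the log2 fold change was 0.10 (95% interval −0.08 to 0.28, exact two-sided permutation p = 0.270). The other 2 leukocyte chains, *Itgb7* (12.4 ± 2.67 and 13.4 ± 2.20 CPM) and its partner *Itgae* (3.52 ± 0.973 and 3.60 ± 0.924 CPM; SD, n = 5 each), which binds E-cadherin, had log2 fold changes of 0.12 and 0.03. That of *Itgb7* was 0.23 without Pax7Cre mouse 2, 0.22 without miR-501ΔMP mouse 3 and 0.05 without Pax7Cre mouse 3 or 5. Markers of leukocytes were measured beside them. All 9 pan leukocyte and macrophage markers had reads in every mouse and summed to between 4640 and 6450 CPM in Pax7Cre and between 4850 and 5700 CPM in miR-501ΔMP mice. The 6 T cell markers summed to between 39.4 and 60.4 CPM and between 33.1 and 51.6 CPM, and the 6 neutrophil markers, 5 of them with reads in every mouse, to between 31.4 and 37.0 CPM and between 28.4 and 37.0 CPM. These sums overlapped between the genotypes, as did the summed leukocyte integrins (311 to 430 CPM and 327 to 432 CPM). Of the 9 pan leukocyte and macrophage markers, 4 had log2 fold changes above 0 and 5 below (median −0.0226), of the 4 neutrophil markers tested 1 was above (median −0.074), and of the 6 T cell markers 4 were (median 0.0884), with 0 at an unadjusted p under 0.05.

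The vascular chains had log2 fold changes on both sides of 0, with 2 of 6 above and a median of −0.0218. The median was above 0 without miR-501ΔMP mouse 1 (4 of 6, 0.0159), 2 (3 of 6, 0.00412) or 4 (3 of 6, 0.00244), and lowest without miR-501ΔMP mouse 3 (1 of 6, −0.062). *Lama4*, the laminin α4 chain under endothelium, had 142, 147, 165, 163 and 170 CPM in Pax7Cre mice and 146, 134, 196, 144 and 165 CPM in miR-501ΔMP mice. miR-501ΔMP mice held both its lowest and its highest value, and the means were the same, 157 ± 12.2 and 157 ± 24.5 CPM (SD, n = 5 each; exact two-sided permutation p = 0.952). *Lama5*, the α5 chain of mature vessels, had 60.2, 70.2, 55.5, 80.0 and 76.5 CPM in Pax7Cre mice and 67.1, 59.1, 80.2, 69.0 and 77.0 CPM in miR-501ΔMP mice. The genotypes overlapped over nearly the whole range, with a log2 fold change of 0.04 (95% interval −0.21 to 0.29).

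*Itga2b*, the fibrinogen receptor chain of platelets and a member with a seed match, had 3.40, 3.80, 4.07, 3.81 and 3.33 CPM in Pax7Cre mice and 3.08, 3.59, 4.16, 3.39 and 3.69 CPM in miR-501ΔMP mice. It was among the lowest members, with 64 to 100 reads per mouse, and both extremes lay in miR-501ΔMP mice (log2 fold change −0.04, 95% interval −0.32 to 0.24). *Itga1*, a collagen IV receptor chain of vessel walls, had the smallest p among the members with a negative fold change. Its levels were 57.4, 64.1, 66.8, 52.7 and 68.1 CPM in Pax7Cre mice and 55.5, 47.9, 67.8, 58.8 and 55.8 CPM in miR-501ΔMP mice. One miR-501ΔMP mouse lay below every Pax7Cre mouse and none above, with a log2 fold change of −0.11 (95% interval −0.33 to 0.10, edgeR's unadjusted p 0.284, exact two-sided permutation p = 0.317). It shares 685 bases (3.68% of its exons) with *Gm49395* on the same strand, and the sum of both genes was 73.6 ± 7.07 and 69.0 ± 7.60 CPM (SD, n = 5 each; exact two-sided permutation p = 0.341).

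*Itga8*, which binds nephronectin and is known from smooth muscle, had 6.14, 7.65, 7.03, 6.74 and 8.37 CPM in Pax7Cre mice and 7.12, 6.61, 5.54, 6.94 and 7.50 CPM in miR-501ΔMP mice. Apart from miR-501ΔMP mouse 3, the lowest, the genotypes shared 1 range (log2 fold change −0.09, 95% interval −0.35 to 0.17). *Itgb3*, the β chain of the platelet fibrinogen receptor and of αvβ3, had 15.3 ± 3.09 and 16.6 ± 0.737 CPM (SD, n = 5 each). Its log2 fold change was 0.11, 0.23 (edgeR's unadjusted p 0.0332) without Pax7Cre mouse 4 and 0.03 (edgeR's unadjusted p 0.760) without Pax7Cre mouse 2. The 8 endothelial markers summed to between 734 and 932 CPM in Pax7Cre and between 743 and 920 CPM in miR-501ΔMP mice. The 7 smooth muscle and pericyte markers summed to between 1100 and 1410 CPM and between 1290 and 1520 CPM. The 6 platelet markers, 4 of them with reads in every mouse, summed to between 35.8 and 86.4 CPM and between 53.5 and 70.2 CPM. None of these sums separated the genotypes. Of the 8 endothelial markers, 1 had a log2 fold change above 0 and 7 below (median −0.0595). Of the 7 smooth muscle and pericyte markers, 3 were above and 4 below (median −0.00332). The 3 platelet markers tested were all above (median 0.0906, highest 0.64), and 0 of these markers had an unadjusted edgeR p under 0.05.

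The epithelial chains were low in this muscle apart from *Itgb6*, with 2.89 ± 0.431 CPM per kilobase of merged exons, near *Itgb3* (2.70 ± 0.376). Of the 5, 3 had log2 fold changes above 0, with a median of 0.112. This median ran from 0.0552 without miR-501ΔMP mouse 4 to 0.156 without Pax7Cre mouse 2. *Itgb4*, the β chain that pairs with α6 in hemidesmosomes and is also made by Schwann cells, had 7.03, 13.0, 9.93, 9.63 and 9.40 CPM in Pax7Cre mice and 10.3, 12.6, 10.6, 12.9 and 9.79 CPM in miR-501ΔMP mice. Pax7Cre mouse 2 was the highest of all, and 3 of the other Pax7Cre mice lay below every miR-501ΔMP mouse. The log2 fold change was 0.20 (95% interval −0.12 to 0.51, edgeR's unadjusted p 0.197, exact two-sided permutation p = 0.183), and without Pax7Cre mouse 2 it was 0.32 (edgeR's unadjusted p 0.0274), and without Pax7Cre mouse 1 it was 0.10 (edgeR's unadjusted p 0.459). *Lama3*, the α chain of the epithelial laminin, had 5.02, 5.96, 6.76, 5.34 and 7.54 CPM in Pax7Cre mice and 5.96, 4.72, 6.04, 6.25 and 5.42 CPM in miR-501ΔMP mice. The highest and second highest values were from Pax7Cre mice and the lowest from a miR-501ΔMP mouse (log2 fold change −0.11, 95% interval −0.40 to 0.19).

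*Lamb3*, the β chain of the same laminin, had 3.32 ± 0.781 and 3.64 ± 0.347 CPM (SD, n = 5 each) and a log2 fold change of 0.13, and *Itgb6*, an epithelial receptor chain that activates TGF-β with αv, had 19.8 ± 3.60 and 21.4 ± 2.57 CPM (SD, n = 5 each) and 0.11. Over single mice left out these fold changes ran from 0.06 to 0.27 for *Lamb3* and from 0.06 to 0.21 for *Itgb6*. Epithelial markers were near 0. The 5 of them summed to between 4.21 and 5.73 CPM per mouse, only 3 had reads in every mouse, and *Krt14*, a keratin of basal epithelium, was at 0 in all 10 mice. The 6 Schwann cell markers summed to between 128 and 151 CPM in Pax7Cre and between 125 and 146 CPM in miR-501ΔMP mice. Which cells these transcripts came from was not tested.

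Of the 13 widely expressed chains, 8 had a log2 fold change above 0, with a median of 0.0136. Without Pax7Cre mouse 1 or 2 or miR-501ΔMP mouse 3 or 5 the median was below 0 (lowest −0.0464 with 5 of 13 above 0, without Pax7Cre mouse 2), and without miR-501ΔMP mouse 2 it was 0.0581 with 10 of 13 above. Scaled by library totals alone, 5 of the 13 were above 0 with a median of −0.0251, while the median over all genes was −0.0269 with 36.4% above 0. *Itgb1* (chr8:128685654-128733200, plus strand) had 735, 619, 748, 666 and 679 CPM in Pax7Cre mice and 728, 675, 733, 720 and 672 CPM in miR-501ΔMP mice. It was the steadiest member, with the highest mouse 1.21 times the lowest, and the means were 689 ± 52.6 and 706 ± 29.6 CPM (SD, n = 5 each; exact two-sided permutation p = 0.619). *Lamc1* (chr1:153218922-153332786, minus strand), had 308, 328, 356, 372 and 439 CPM in Pax7Cre mice and 329, 326, 427, 350 and 416 CPM in miR-501ΔMP mice. In both genotypes the mice spread over the same levels, with a log2 fold change of 0.04 (95% interval −0.22 to 0.29).

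*Itga10*, a collagen receptor chain best known from cartilage, had the largest fold change and the smallest p of the 34 members. Its levels were 3.85, 3.48, 5.76, 5.05 and 6.22 CPM in Pax7Cre mice and 6.28, 5.99, 6.83, 4.77 and 8.01 CPM in miR-501ΔMP mice, from 66 to 189 reads per mouse. Of the miR-501ΔMP mice, 3 lay above every Pax7Cre mouse. The means were 4.87 ± 1.18 and 6.38 ± 1.18 CPM (SD, n = 5 each; exact two-sided permutation p = 0.0873). The log2 fold change was 0.39 (standard error 0.181, 95% interval −0.00 to 0.78), with an unadjusted edgeR p of 0.0504 that did not pass and an adjusted p of 1.00. It lay on either side of 0.05 with the settings, at 0.0403 in DESeq2's Wald test, 0.0284 with the replicate number as a block, 0.019 with the mature fiber score in the fit, 0.162 without Pax7Cre mice 2 and 4, and between 0.0212 and 0.141 when single mice were left out. *Itga10* (chr3:96645584-96664519, plus strand) shares 1739 bases, 33.5% of its exons, with *Gm42957* on the same strand. Summed over both genes the levels were 15.2 ± 1.46 and 17.3 ± 1.71 CPM (SD, n = 5 each; exact two-sided permutation p = 0.0714), a log2 ratio of means of 0.19.

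The other widely expressed collagen receptors had fold changes nearer to 0. *Itga11*, a collagen receptor chain of fibroblasts, had 41.8 ± 10.1 and 39.3 ± 6.27 CPM, and *Itga2* had 6.33 ± 0.798 and 6.79 ± 1.06 CPM (SD, n = 5 each), with log2 fold changes of −0.09 and 0.10. With single mice left out they ran from −0.21 (without Pax7Cre mouse 2) to −0.00 (without Pax7Cre mouse 5) for *Itga11* and from 0.00 (without miR-501ΔMP mouse 3) to 0.16 (without Pax7Cre mouse 3) for *Itga2*. Among the receptors for RGD peptides, such as fibronectin and vitronectin receptors, 4 of 8 were above 0 with a median of 0.000296. *Itga5* had 126 ± 33.3 and 138 ± 6.28 CPM (0.13), *Itgav* 63.7 ± 12.3 and 64.4 ± 3.46 CPM (0.01), *Itgb5* 126 ± 15.7 and 122 ± 9.09 CPM (−0.05), and *Itgb8* 3.04 ± 0.386 and 3.01 ± 0.552 CPM (−0.01), with the log2 fold change in parentheses. *Itga5* passed an unadjusted p under 0.05 only with the mature fiber score in the fit (log2 fold change 0.23, edgeR's unadjusted p 0.0474), and its fold change was 0.00 without Pax7Cre mouse 2 and 0.26 without Pax7Cre mouse 4. The laminin receptors *Itga3* and *Itga6* and the tenascin receptor *Itga9* had log2 fold changes of 0.01, 0.01 and −0.06, and *Lamb1* −0.01. The 6 fibro-adipogenic progenitor markers, which mark the fibroblastic cells of muscle, summed to between 1250 and 2230 CPM in Pax7Cre and between 1550 and 1780 CPM in miR-501ΔMP mice. Of them, 1 had a log2 fold change above 0 and 5 below (median −0.0751, lowest −0.66), with 0 at an unadjusted edgeR p under 0.05.

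Relative use of subunits was compared by 8 ratios of CPM per kilobase of merged exons, taken within each mouse. They do not depend on library scaling. Their size depends on the length used, while their log2 difference between the genotypes does not. None passed an exact two-sided permutation test between the genotypes, with p between 0.190 and 0.992 and a Benjamini-Hochberg adjusted p of 0.992 for each. *Itga7* over *Itga6*, the chain of the muscle's laminin receptor over that of a laminin receptor found on many cells, had the smallest p. The ratio was 2.00, 2.01, 2.13, 2.76 and 2.27 in Pax7Cre mice and 2.55, 2.77, 2.31, 2.20 and 2.46 in miR-501ΔMP mice. It was higher in miR-501ΔMP mice by 0.14 on the log2 scale (exact two-sided permutation p = 0.190), and by 0.22 (exact two-sided permutation p = 0.0317) without Pax7Cre mouse 4. The muscle laminin chain kept much the same proportion to the vascular ones, with *Lama2* over *Lama4* at a geometric mean of 0.562 and 0.591 and *Lama2* over *Lama5* at 1.23 and 1.24 in Pax7Cre and miR-501ΔMP mice. *Lamb2* over *Lamb1* was 0.723 and 0.767, *Itgb1* over the leukocyte chain *Itgb2* 4.83 and 4.69, and *Itga7* over *Itga5* 0.874 and 0.864. Myeloid and lymphoid chains had the widest range, with *Itgam* over *Itgal* between 1.58 in Pax7Cre mouse 2 and 4.28 in Pax7Cre mouse 4, and geometric means of 2.90 and 2.96. *Itgax* over *Itgam* was 0.999 and 0.996. The reads of *Gm49368*, which shares exons with *Itgam*, were also added to *Itgam*, a sum chosen after seeing the data. These ratios were taken of plain CPM, not per kilobase. *Itgax* over the sum was 0.545 and 0.546, and the sum over *Itgal* was 3.88 and 3.94 (exact two-sided permutation p = 0.992 and 0.937). Their sizes do not compare with those per kilobase, and only the difference between the genotypes does.

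The spread among Pax7Cre mice exceeded that among miR-501ΔMP mice for 25 of the 34 members (73.5%), as it did for 79.5% of all genes. Pax7Cre mouse 2 held the lowest level of 10 members and the highest of 5, and Pax7Cre mouse 4 the highest of 9 and the lowest of 1. On the log2 scale, mouse 4 exceeded mouse 2 by over 0.5 for *Itgam* (1.14), *Itga5* (1.09), *Itga11* (0.77), *Itgav* (0.75), *Itgb3* (0.74) and *Itga10* (0.54), 6 of 34 members, where 12.3% of all genes did. *Itgb6* (−0.57) and *Itgae* (−0.54) went the other way, where 17.0% of all genes did. *Itga5* was at 80.7 CPM in mouse 2, the muscle with the most mature fiber RNA, and at 172 CPM in mouse 4, the one with the least. The receptors for RGD peptides went both ways, since *Itgb8* (0.07) and *Itga2b* (0.00) hardly differed and *Itga8* (−0.18) and *Itgb6* were lower in mouse 4. The part of cell content in these differences was not tested.

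**Figure D4:**
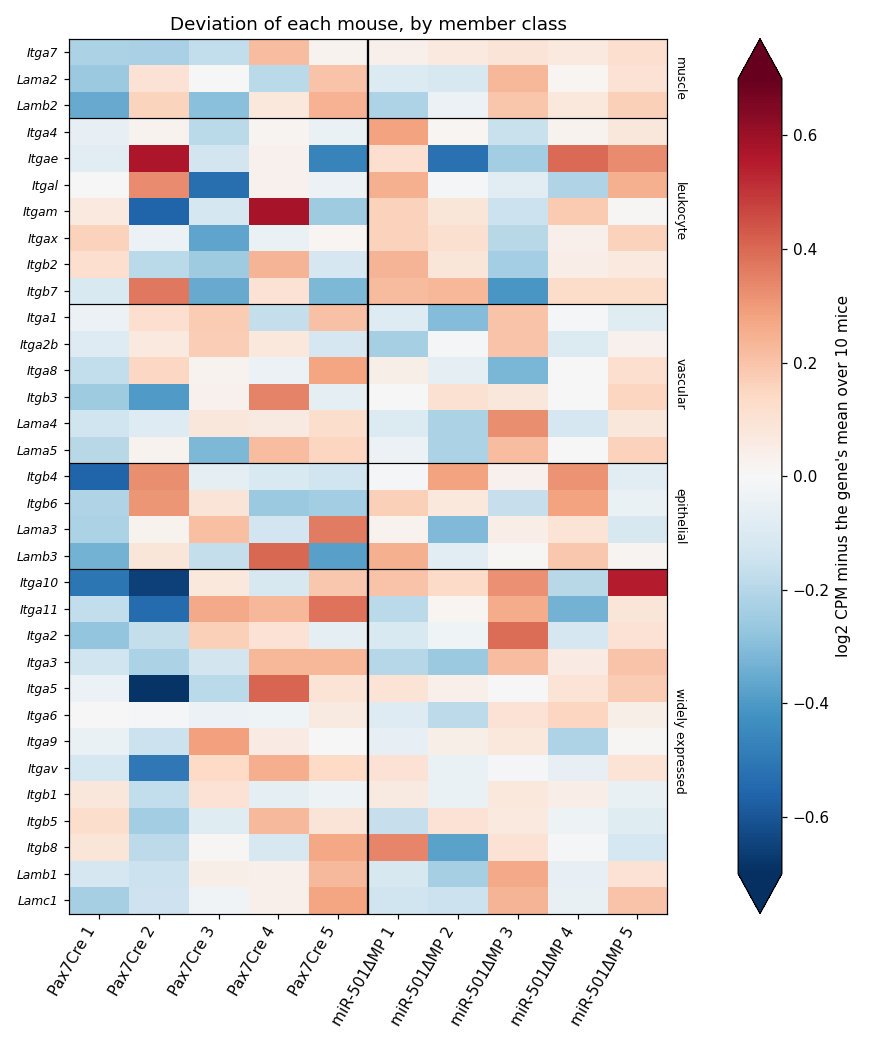
Log2 CPM of the members in each mouse minus the member's mean over the 10 mice (colour scale from −0.7 to 0.7), with members in rows by class and mice in columns. *Itga5* and *Itgam* are deep blue in Pax7Cre mouse 2 and red in Pax7Cre mouse 4, while no class separates the 5 miR-501ΔMP mice from the 5 Pax7Cre mice.

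Several laminin chains had a positive relation to each other from mouse to mouse. Across the 10 mice of both genotypes, log2 CPM of *Lamb1* and of its partner *Lamc1* had a Pearson r of 0.93 (permutation p adjusted over 14 pairs = 0.0014) and a Spearman rho of 0.94 (adjusted permutation p = 0.00378), and r was 0.86 without the 2 mice farthest from the median of *Lamc1*, Pax7Cre mouse 5 and miR-501ΔMP mouse 3. *Lama4* and *Lamc1* had r = 0.85 (adjusted permutation p = 0.00889), rho = 0.89 (0.00819) and r = 0.78 without these 2 mice. The other 3 chains had a weaker relation to *Lamc1*, with r of 0.75 for *Lama2*, 0.72 for *Lamb2* and 0.71 for *Lama5* (adjusted permutation p = 0.0364, 0.0420 and 0.0420) and rho of 0.66, 0.75 and 0.68 (0.0888, 0.0484 and 0.0803). Without the same 2 mice they were 0.49, 0.56 and 0.59, so these 3 rest in part on the mice with the most *Lamc1*. The 14 pairs of chains known to assemble with each other were taken up after the data were seen, and the points share library scaling. No r is given within a genotype, where 5 mice would leave it imprecise.

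Integrin pairs fell on both sides. *Itgam* and *Itgb2* had r = 0.80 (adjusted permutation p = 0.0129), rho = 0.76 (0.0484) and r = 0.91 without Pax7Cre mouse 3 and miR-501ΔMP mouse 3, and *Itga4* and *Itgb7* r = 0.75 (adjusted permutation p = 0.0237), rho = 0.77 (0.0484) and 0.50 without the same mice. *Itgax* and *Itgb2* had r = 0.74 (adjusted permutation p = 0.0325) with rho = 0.64 (0.0952), and 0.43 without them. For *Itgal* and *Itgb2* r was 0.40 (adjusted permutation p = 0.367), and −0.11 without them. No chain that pairs with *Itgb1* passed, with r of −0.07 for *Itga7*, 0.29 for *Itga5*, 0.17 for *Itga6* and −0.24 for *Itga4* (adjusted permutation p between 0.551 and 0.859), and without Pax7Cre mouse 2 it was −0.69 for *Itga7* and −0.75 for *Itga5*. For *Itga4* it was −0.71 without miR-501ΔMP mouse 1 and −0.04 without Pax7Cre mouse 3, with rho of −0.61 over all mice (adjusted permutation p = 0.102). *Itgav* and *Itgb5* had r = 0.51 (adjusted permutation p = 0.202), which was −0.56 without Pax7Cre mice 2 and 4. In all, 8 of the 14 pairs had an adjusted p of r under 0.05, each with r of 0.71 or more. Of all pairs of the 14400 tested genes with reads in every mouse, 4.32% had such an r, as did 3.68% of these genes with *Lamc1*, and genes are not independent of each other.

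**Figure D5:**
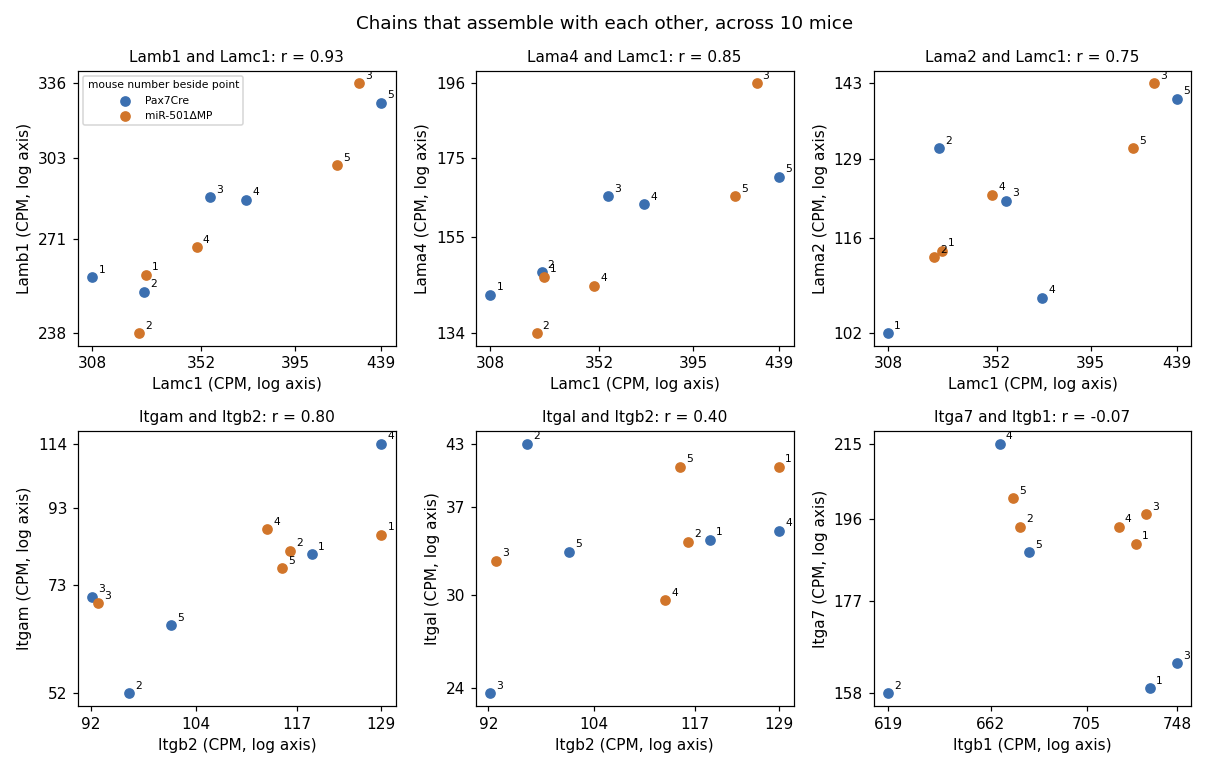
CPM of a chain against CPM of a chain it assembles with (both axes log) in 10 mice, numbered within Pax7Cre (blue) and miR-501ΔMP (orange), for 6 of the 14 pairs. *Lamb1* and *Lamc1* rise together (r = 0.93) in mice of both genotypes, and *Itga7* and *Itgb1* do not (r = −0.07).

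Of 10 pairs of a member with a marker of a cell type, 1 passed. *Itgal* and *Cd3e*, a T cell receptor component with 12 to 70 reads per mouse, had r = 0.83 (permutation p = 0.00192, adjusted over the pairs 0.0192) and rho = 0.75 (permutation p = 0.017, adjusted 0.170), and r was 0.61 without Pax7Cre mouse 3 and miR-501ΔMP mouse 4. Without Pax7Cre mouse 2, Pax7Cre mouse 3 or miR-501ΔMP mouse 5, r was 0.79, 0.75 or 0.81 and no pair passed. *Itgam* and the macrophage marker *Adgre1* had r = 0.62 (adjusted permutation p = 0.263), and *Lama2* and the fibroblastic marker *Pdgfra* r = 0.55 (adjusted permutation p = 0.333). *Itgb2* and *Ptprc*, the marker of all leukocytes, had r = 0.14 (adjusted permutation p = 0.702). *Itga7* and *Ckm*, creatine kinase of mature fibers, had r = −0.30 (adjusted permutation p = 0.511), and r = 0.84 over the 8 mice without Pax7Cre mice 2 and 4, so its sign rests on these mice. The relation of *Lamb2* to *Ckm* went from 0.43 (adjusted permutation p = 0.450) to 0.73 without them. For the vascular chains, r was 0.30 for *Lama4* with *Pecam1*, −0.22 for *Itga2b* with *Pf4* and 0.48 for *Itga8* with *Myh11* (adjusted permutation p between 0.398 and 0.602).

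The partners of integrins and laminins were as close between the genotypes. Of 25 genes of the integrin adhesion complex, the proteins that link integrin tails to actin, 15 were above 0 and 10 below, with a median log2 fold change of 0.0402 and 0 at an unadjusted p under 0.05 in either direction. The smallest p were those of the tetraspanin *Cd151*, which binds laminin receptors (123 ± 9.07 and 130 ± 8.65 CPM; SD, n = 5 each; log2 fold change 0.08), and of talin *Tln2* (75.7 ± 7.49 and 79.5 ± 4.67 CPM; SD, n = 5 each; 0.07). Of 21 genes of the basement membrane and the dystroglycan complex, 10 were above 0 and 11 below, with a median of −0.0129 and 0 past the same threshold. *Col18a1*, a basement membrane collagen, had 264 ± 66.2 and 291 ± 20.4 CPM (0.14), and the sarcoglycan *Sgcb* had 115 ± 11.2 and 110 ± 4.15 CPM (−0.07).

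Of 17 other integrin ligands, 14 were tested and the 3 fibrinogen chains *Fga*, *Fgb* and *Fgg* were not. Of these, 9 were above 0 and 5 below, with a median of 0.0449 and 0 past the threshold. *Vcam1*, the endothelial ligand of the α4 chain, had 82.2 ± 9.96 and 74.1 ± 6.56 CPM (SD, n = 5 each; log2 fold change −0.15, exact two-sided permutation p = 0.175). Tenascin-C (*Tnc*), a matrix protein of regenerating tissue, had 646 ± 305 and 824 ± 151 CPM (SD, n = 5 each; log2 fold change 0.35, exact two-sided permutation p = 0.294). With the mature fiber score in the fit, 3 of these genes, *Tnc*, *Spp1* and *Thbs1*, were higher at an unadjusted p under 0.05, where 304 of all 14410 genes (2.11%) were. Without Pax7Cre mouse 2, *Vcam1* was lower and *Lims2*, a partner of integrin-linked kinase, higher at that threshold, as 1.28% and 1.84% of all genes were.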

How the data were processed

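RNA of TA muscle from 10 mice was measured, 5 per genotype, with 1 library per mouse. The authors made stranded mRNA libraries, sequenced single-end reads, aligned them with STAR and deposited raw counts per gene and mouse, not normalized. The submitters' processing notes name STAR and featureCounts, with no version given, R 3.5.1 and build GRCm38.p5, while the strand setting and the treatment of reads shared by genes are not given in the sources used here. Whether a read of a gene that overlaps another on the opposite strand was told apart is therefore not known, which touches *Itga7* (*Mettl7b*), *Itga4* (*Cerkl*), *Lama2*, *Lama3*, *Itga8*, *Itgav* and *Itgb4*. Of the 25700 identifiers, 25587 were matched to GENCODE M21 (GRCm38), and 5846 had no read. The values of 1 member and of 1 pair of a member with a marker are not reported here, although both stay in the counts.

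The counts were scaled with TMM in edgeR 4.0.16 (R 4.3.3). Its filterByExpr function left 14410 genes, and its quasi-likelihood test compared miR-501ΔMP with Pax7Cre with Benjamini-Hochberg adjustment over all genes, with 95% intervals from its standard errors. The step was tested on simulated data. CPM are TMM-normalised. Single members and ratios had exact two-sided permutation tests, whose smallest p for 5 mice against 5 is 0.00794, and correlations of log2 CPM 100000 permutations. Mice were grouped by their labels. Every pair of libraries within a genotype differed beyond counting noise (lowest chi-square per degree of freedom 9.47), so no library repeats another of its genotype. The members, classes, pathway and marker lists were chosen with earlier results of these data known. Values per mouse are given for 13 members, the widely expressed *Itgb1* and *Lamc1* and others of known muscle, leukocyte or vascular roles. They are also given for the 3 higher and 3 lower members with the smallest p. Of each pathway list, the 2 genes with the smallest p are named, and *Lims2*, *Spp1* and *Thbs1* were named after their values were seen. The alternatives were other size factors, filters and tests, a replicate block, the mature fiber score as a covariate, leaving out mice, and the longest transcript as length. Pairs of partner chains, sums and ratios with overlapping genes and leaving out Pax7Cre mice 2 and 4 together were added after seeing the data.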

Additional observations from a re-analysis of the deposited data

Results flagged for a closer look

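In 2 of 84 groups of 5 mice examined, 1 mouse lay far from the other 4 by Dixon's criterion at the 95% level, where chance would give 4.2. *Itgb7*, the β chain of gut-homing and αE integrins, was at 9.58 CPM in miR-501ΔMP mouse 3 and between 13.9 and 14.9 CPM in the other miR-501ΔMP mice. The ratio of *Itga7* to *Itga5*, per kilobase of merged exons, was 1.19 in Pax7Cre mouse 2 and between 0.762 and 0.880 in the other Pax7Cre mice.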

How the results depend on the processing

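The count of members with an adjusted p under 0.05 and that of members lower at an unadjusted p under 0.05 were 0 under every alternative run. The count of higher members, 0 in the reported fit, was 1 without a filter, 1 with DESeq2's Wald test and 1 with robust empirical Bayes (0.771%, 0.361% and 0.402% of all genes were higher), each time *Itga10* (log2 fold change 0.39), and 2 with the mature fiber score as a covariate (*Itga10* 0.45, *Itga5* 0.23; 2.11% of all genes). Leaving out single mice gave 0 to 3 (0.269% to 1.84% of all genes), and leaving out Pax7Cre mice 2 and 4 together gave 4 (*Itga7* 0.20, *Itgb4* 0.35, *Itgb7* 0.33, *Lamb3* 0.37; 1.91% of all genes). Members at an exact permutation p under 0.05 numbered 0 to 3 over single mice left out, ratios 0 to 1, and pairs of a member with a marker 0 to 1. The share of all genes in the permutation test is not given here, so its counts of members have no background to be read against. Pathway genes higher were 3 with the covariate and 0 to 1 over single mice, and those lower 0 to 1 over single mice and 1 without Pax7Cre mice 2 and 4. The cause was not tested.

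The replicate numbers were not taken to pair the mice, since the labels tie them to no litter or batch and not every correlation was over 0.1. Deviations of equally numbered mice had correlations of 0.326, −0.15, 0.153, −0.292 and 0.195, and Pax7Cre mice 1, 3 and 5 correlated best with their own number, a hint from the data, not the design. With the replicate block, 1 member was higher (*Itga10* 0.40, edgeR's unadjusted p 0.0284, with 0.604% of all genes higher) and 0 pathway genes passed. The paired exact test of the ratios cannot go below a p of 0.0625 with 5 pairs, so it could pass none.

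Members near 0 changed sign. With library totals alone, *Itga3* was −0.03, *Itga6* −0.01 and *Itgav* −0.03. The covariate gave *Itgae* −0.03 and *Lama4* 0.01, and leaving out Pax7Cre mice 2 and 4 gave *Itgav* −0.04 and *Itgb1* −0.03. Over single mice left out, log2 fold changes ran from −0.10 to 0.01 for *Itga2b*, −0.05 to 0.07 for *Itga3*, −0.02 to 0.06 for *Itga6*, −0.11 to 0.01 for *Itga9*, −0.07 to 0.20 for *Itgae*, −0.03 to 0.17 for *Itgal*, −0.05 to 0.26 for *Itgam*, −0.09 to 0.08 for *Itgav*, −0.01 to 0.06 for *Itgb1*, −0.11 to 0.00 for *Itgb5*, −0.11 to 0.07 for *Itgb8*, −0.00 to 0.11 for *Lama2*, −0.10 to 0.05 for *Lama4*, −0.02 to 0.10 for *Lama5*, −0.08 to 0.05 for *Lamb1*, −0.01 to 0.13 for *Lamb2* and −0.02 to 0.12 for *Lamc1*. Log2 ratio differences ran from −0.09 to 0.09 for *Lama2* over *Lama5*, −0.16 to 0.12 for *Itgax* over *Itgam* (0.00 with the reads of *Gm49368* added to *Itgam*), −0.07 to 0.10 for *Itga7* over *Itga5*, −0.19 to 0.17 for *Itgam* over *Itgal* and −0.12 to 0.04 for *Itgb1* over *Itgb2*, and r from −0.52 to 0.08 for *Itga7* with *Ckm*, −0.20 to 0.33 for *Itgb2* with *Ptprc* and −0.19 to 0.48 for *Lama4* with *Pecam1*. Members with few reads, such as *Itgb8* with 49 to 95 and *Itgae* with 51 to 103 per mouse, have counting error added to the variation between animals.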
